A study of Mus musculus with 10 samples.

Results

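The myoblast fusion genes described here are 10 genes, chosen by name from the 55359 genes of a deposited RNA-sequencing table: the fusogens *Mymk* and *Mymx*, the immunoglobulin adhesion molecules *Jam2*, *Jam3* and *Ncam1*, the cadherins *Cdh15* and *Cdh2*, and the Rac activators *Dock1*, *Dock5* and *Elmo1*. The list was drawn up by gene name, with earlier results of these data known. All 10 were found, each under a symbol that occurs once in the table. They were compared between C2C12 cells, a mouse myoblast line, transfected with a small interfering RNA (siRNA) against *Fndc1* (si-*Fndc1*, 5 libraries) and the same cells given a control siRNA (si-Control, 5 libraries). Both groups carried siRNA at 100 nM and had been kept for 4 days in the low-serum medium in which C2C12 cells form myotubes, as far as the sample labels tell. C2C12 is 1 established line, and nothing in the labels states that the libraries came from separate cultures, so the p-values measure only the spread between libraries, which may be technical. The question put to the data was how transcripts of the fusion machinery stood in cells with less *Fndc1* transcript.

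Skeletal muscle fibres form when mononucleated myoblasts leave the cell cycle, recognise each other through adhesion molecules and merge their membranes. Immunoglobulin proteins and cadherins bring the cells into contact, Dock proteins with their Elmo partners switch on the small GTPase Rac to build the actin structures that push the membranes together, and the muscle-specific membrane proteins myomaker (*Mymk*) and myomixer (*Mymx*) carry out the merging of the lipid layers. The factors MyoD (*Myod1*) and myogenin (*Myog*) switch on many muscle genes through a short DNA word, the E-box, written CANNTG.

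The total count per library ran from 66771605 to 75995168 in si-Control and from 56332844 to 72839369 in si-*Fndc1*, the lowest being si-*Fndc1* 5. The siRNA target itself, *Fndc1*, was between 24.7 and 29.6 FPKM (fragments scaled to transcript length and library size, so that levels of different genes can be compared) in si-Control and between 18.7 and 23.5 FPKM in si-*Fndc1*, a log2 fold change (log2FC, si-*Fndc1* over si-Control) of -0.40 with a standard error (SE) of 0.07 (edgeR adjusted p = 0.000934). All p-values named edgeR come from its quasi-likelihood test on the counts, adjusted by Benjamini-Hochberg over 13548 genes unless another setting is named, and the permutation tests are exact and two-sided. The myogenic identity of the cells was visible in *Myod1*, *Myog* and *Des* (desmin), at 41.9, 253.5 and 631.9 FPKM on average in si-Control. The other listed myogenic markers, *Mef2c*, *Myf5* and *Myf6*, were lower there, at 11.2, 8.74 and 0.555 FPKM. Transcripts of hepatocytes were also present. The summed level of 18 hepatocyte genes was at most 7.51 FPKM in si-Control (0 to 1108 counts in a library). In si-*Fndc1* it was 60.8 to 209.0 FPKM (6342 to 29114 counts). The filter for testing was a mean of at least 0.5 FPKM over the 10 libraries. The 16 of them that passed were all called as higher in si-*Fndc1* (17.3% of all tested genes were). All of the 16 but *Alb* had a si-Control mean under 0.5 FPKM and passed only through their si-*Fndc1* levels. Their calls are thus no separate result. Log2 fold changes over the 11185 tested genes with a known transcript GC content fell with that GC content (Spearman coefficient -0.52, taken over genes, which are no independent replicates), so each fold change was also fitted with an offset for GC content and length, named below as the offset. With the offset the log2FC of *Fndc1* was -0.21 (adjusted p = 0.0129). The part of the hepatocyte transcripts and of GC content in the results was not tested. These are bulk libraries, in which fewer cells of a type and less RNA per cell cannot be told apart.

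Promoter sequences (250 bases before to 50 bases after the start of the transcript, RefSeq, build GRCm38.p6) were matched for 3 of the 10 genes, *Cdh15*, *Dock1* and *Elmo1*. Those of *Cdh15* and *Dock1* are shown because the levels of these genes in the 2 groups did not overlap, and each E-box is in capitals. The *Cdh15* promoter lies at chr8:122848124-122848423 and the *Dock1* promoter at chr7:134670437-134670736, both on the plus strand.
Cdh15: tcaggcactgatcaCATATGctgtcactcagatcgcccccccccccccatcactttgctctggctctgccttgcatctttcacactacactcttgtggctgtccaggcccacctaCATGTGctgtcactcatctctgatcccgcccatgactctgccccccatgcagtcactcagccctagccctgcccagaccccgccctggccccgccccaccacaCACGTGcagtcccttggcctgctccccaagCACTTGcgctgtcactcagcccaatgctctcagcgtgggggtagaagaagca
Dock1: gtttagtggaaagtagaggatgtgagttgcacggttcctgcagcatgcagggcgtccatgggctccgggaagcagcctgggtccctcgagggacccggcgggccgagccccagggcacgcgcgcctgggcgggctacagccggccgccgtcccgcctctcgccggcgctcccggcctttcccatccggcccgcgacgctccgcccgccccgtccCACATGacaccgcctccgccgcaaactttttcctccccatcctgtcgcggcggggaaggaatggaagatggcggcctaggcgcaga
The *Cdh15* promoter held 4 E-boxes, of 4 different spellings. The *Dock1* promoter held 1, spelled CACATG. The word reads the same on both strands, so that each match counts for both. It occurred at least once in 72.3% of the 32851 mouse promoter entries of this length that were searched, and 4 or more times in 6.49%. The form CAGCTG, found in 16.3% of the entries, was in neither promoter. Of 2 *Elmo1* entries, 1 held the single E-box CAGGTG and the other held 0. Among the entries searched, no match was found for *Mymk*, *Mymx*, *Jam2*, *Jam3*, *Ncam1*, *Cdh2* or *Dock5*. Entries outside that set were not examined, so a missing match does not show that a gene lacks a promoter entry. These matches describe letters and not occupied sites.

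Of the 10 genes, 9 passed the filter for testing, a mean of at least 0.5 FPKM over the 10 libraries, and *Elmo1* did not. At an edgeR adjusted p-value under 0.05, 7 of the 9 changed in si-*Fndc1*, against 34.4% of all tested genes. *Mymk* and *Jam2* rose (17.3% of all tested genes rose) and *Mymx*, *Ncam1*, *Cdh15*, *Dock1* and *Dock5* fell (17.2% fell), while *Jam3* and *Cdh2* were not called. With the filter raised to a mean of at least 5 FPKM, 6 of 7 fusion genes were called, where 3431 of all 6924 tested genes were. With the offset, 3 of the 9 were called, *Jam2* as higher and *Mymx* and *Dock1* as lower, against 22.5% of the 11185 genes that could be fitted this way (37.9% of the same genes without the offset). With quantile-normalized values in limma the split was 1 higher (*Jam2*) and 5 lower, where 2134 of all 13548 genes were higher and 2542 lower. The changes were small. The median log2FC of the 9 was -0.17, where that of all tested genes was 0.00, and the median size without sign was 0.19 for the 9 and 0.17 for all. The FPKM of the groups did not overlap for *Cdh15*, *Dock1* and *Dock5*, which were lower in all 5 si-*Fndc1* libraries than in any si-Control library (13.0% of all tested genes did this in the lower direction, 12.1% in the higher one and 25.1% in either). For the other 7 genes the groups overlapped.

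**Figure D1:**
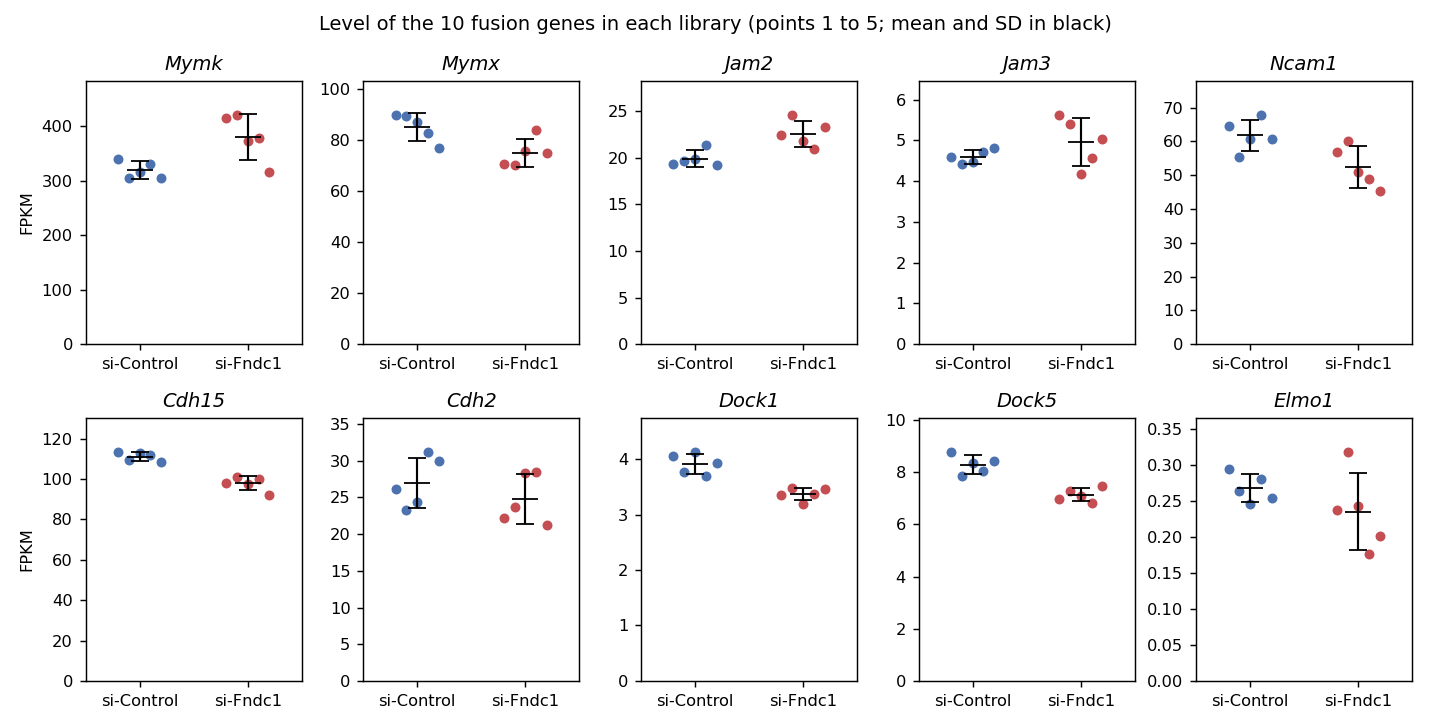
FPKM of the 10 fusion genes (vertical axes, each starting at 0) in the 5 si-Control libraries (blue) and the 5 si-*Fndc1* libraries (red), with points from left to right for libraries 1 to 5 and the mean ± SD in black. The *Cdh15*, *Dock1* and *Dock5* points of the groups do not overlap, and the *Mymk* point of si-*Fndc1* 5, at 315.5 FPKM, lies within the si-Control points.

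The level of the 10 genes spanned a wide range in control myotubes. Their order in si-Control by mean FPKM was *Mymk* (320.0), *Cdh15* (111.2), *Mymx* (85.1), *Ncam1* (61.8), *Cdh2* (27.0), *Jam2* (19.9), *Dock5* (8.29), *Jam3* (4.60), *Dock1* (3.92) and *Elmo1* (0.268). *Mymk* stood 2.88 times above *Cdh15*, and *Dock1* 14.6 times above *Elmo1*. The closest neighbours were *Jam3* and *Dock1*, with a ratio of 1.17. No neighbours in this order overlapped in the 5 si-Control libraries, and in si-*Fndc1* the order stayed the same, with an overlap between *Cdh2* and *Jam2* alone. Over the 10 libraries *Mymk* lay at the 99.4th percentile of all tested genes by mean FPKM, *Cdh15* at the 97.3rd, *Mymx* at the 96.2nd and *Dock1* at the 40.1st.

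*Mymk* (ENSMUSG00000009214, chr2:26951648-26962191, minus strand, GRCm39 as named in the submitters' processing notes) encodes myomaker, the membrane protein that both fusing cells need. Its level in si-Control 1 to 5 was 340.5, 306.0, 316.9, 331.5 and 305.2 FPKM, and in si-*Fndc1* 1 to 5 it was 414.7, 420.4, 373.8, 379.6 and 315.5 FPKM. Libraries 1 to 4 of si-*Fndc1* were above all controls, and library 5 was within their range. The mean rose from 320.0 ± 15.6 to 380.8 ± 42.0 FPKM (SD, n = 5 per group), a ratio of 1.19 (exact permutation p = 0.0317). The log2FC was 0.26 (SE 0.07, edgeR adjusted p = 0.0188), on 34244 to 43515 counts in a si-Control library and 29779 to 51636 in a si-*Fndc1* library. It was 0.21 with the offset (adjusted p = 0.0957) and 0.06 in limma on quantile-normalized values (adjusted p = 0.634), neither of which is a call. The edgeR call was kept without each library in turn (0.22 to 0.32). The permutation test gave p = 0.0635 without si-Control 2 or 5, or without si-*Fndc1* 1, 2, 3 or 4, where the difference was 50.9 to 62.5 FPKM. The summed hepatocyte level of si-*Fndc1* 1 to 5 was 114.4, 209.0, 201.6, 203.2 and 60.8 FPKM. From high to low, libraries 2, 4, 3 and 5 of si-*Fndc1* stood in the same order in both. Library 1 was next to highest in *Mymk* and next to lowest in the hepatocyte sum. The highest sum in si-Control was 7.51 FPKM, in si-Control 5, so the groups differ in both and their parts cannot be told apart. The part of hepatocyte transcripts in the *Mymk* level was not tested.

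*Mymx* (ENSMUSG00000079471, chr17:45911897-45912993, minus strand) encodes myomixer, the small partner protein that acts with myomaker on the membranes. It measured 89.7, 89.3, 87.0, 82.8 and 76.8 FPKM in si-Control 1 to 5, and 70.6, 70.2, 75.8, 83.8 and 75.1 FPKM in si-*Fndc1* 1 to 5. Only si-*Fndc1* 4 was not below all controls, and it exceeded si-Control 4 and 5. The mean fell from 85.1 ± 5.39 to 75.1 ± 5.51 FPKM (SD, n = 5 per group), a ratio of 0.882 (exact permutation p = 0.0317). Its log2FC was -0.17 (SE 0.06, edgeR adjusted p = 0.0442), on 5859 to 7794 counts per si-Control library and 4822 to 6880 per si-*Fndc1* library. With the offset the fall was larger (-0.26, adjusted p = 0.00275). Without the offset the call lay near the threshold. It was lost when si-Control 1, 2, 3 or 4 was left out (adjusted p = 0.0969, 0.0847, 0.0874 and 0.0573) and when si-*Fndc1* 1, 2, 3 or 5 was (0.0966, 0.0887, 0.0682 and 0.0803), with log2FCs of -0.18 to -0.15. The permutation test rose to p = 0.0635 without si-Control 1, 2 or 3, or without si-*Fndc1* 1, 2 or 5 (differences of -10.0 to -8.78 FPKM).

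The 2 fusogens thus moved in opposite directions, and their ratio within each library, in which any scaling of the library cancels, separated the groups. This ratio, *Mymk* FPKM over *Mymx* FPKM, was 3.80, 3.43, 3.64, 4.00 and 3.97 in si-Control 1 to 5. In si-*Fndc1* 1 to 5 it was 5.88, 5.99, 4.93, 4.53 and 4.20. All 5 si-*Fndc1* ratios were above the highest si-Control ratio, the nearest being si-*Fndc1* 5 and si-Control 4. The mean ratio was 3.77 in si-Control and 5.11 in si-*Fndc1*, a difference of 0.43 on the log2 scale (exact permutation p = 0.00794, the smallest that 5 against 5 allow; 0.0317 adjusted over 4 pairs of members). With any library left out the difference was 0.36 to 0.49 and the permutation p was 0.0159, the smallest that 4 against 5 allow. The ratios were examined after the levels had been seen, and this one joins a gene that rose with a gene that fell. Its separation therefore largely restates those changes, and its p-values do not allow for the choice. How often the ratios of other gene pairs separate the groups was not examined. The GC content is 54.9% for *Mymk* and 55.3% for *Mymx*, and the length implied by counts and FPKM is 1680 and 1142 bases. The part of GC content and length in the ratio was not tested. Over the 10 libraries the log2 CPM (counts scaled to library size) of both genes had a Pearson r of -0.56, given as a description of libraries that fall into 2 groups.

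**Figure D2:**
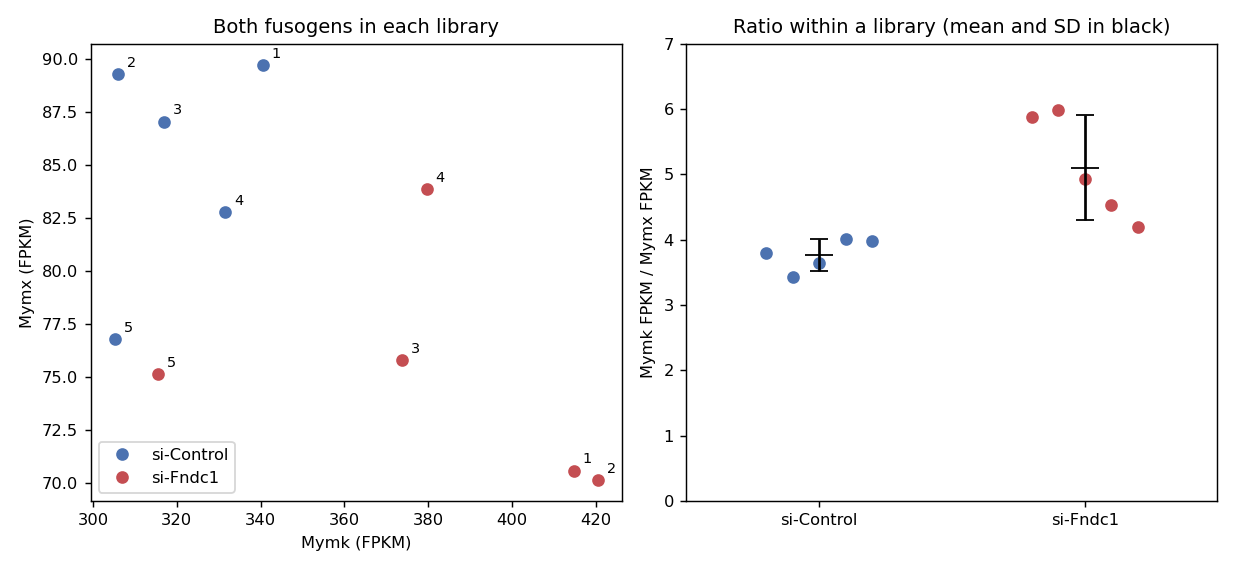
Left, *Mymx* FPKM (vertical) against *Mymk* FPKM (horizontal) in each library, numbered by replicate, with axes that do not start at 0. Right, the ratio of *Mymk* to *Mymx* FPKM in each library with the mean ± SD in black: the si-Control ratios end at 4.00 and the si-*Fndc1* ratios begin at 4.20.

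*Myod1* and *Myog*, whose proteins switch on many muscle genes, are given beside the fusion genes. *Myod1* rose from 41.9 ± 0.896 to 46.7 ± 2.83 FPKM (SD, n = 5 per group; log2FC 0.16, edgeR adjusted p = 0.0162), with 0.25 under the offset (adjusted p = 0.00118) and the call lost in limma on quantile-normalized values (0.10, adjusted p = 0.124). *Myog* had 253.5 ± 10.9 FPKM in si-Control and 232.7 ± 18.4 in si-*Fndc1* (SD, n = 5 per group; -0.12, edgeR adjusted p = 0.137) and was called as lower with the offset (-0.17, adjusted p = 0.0295), in limma on quantile-normalized values (-0.26, adjusted p = 0.00254) and without si-*Fndc1* 4 (-0.16, adjusted p = 0.0229). A list of 12 myotube genes held contractile protein genes and also *Ckm* (creatine kinase) and *Casq2* (calsequestrin 2). Of the 12, 4 rose (*Mylpf*, *Ckm*, *Tnnt1* and *Myl1*) and 2 fell (*Casq2* and *Ttn*), against 34.4% of all tested genes called. With the offset 3 were higher and 1 lower, where 22.5% of all fitted genes were called. *Myl1* (0.06, adjusted p = 0.476) lost its call, and *Ttn* turned from -0.45 to 0.08 and lost its call (adjusted p = 0.408). Their summed level was 7461 to 7833 FPKM in si-Control and 7950 to 8671 FPKM in si-*Fndc1*. *Mylpf* made up most of this, with a mean of 1971 FPKM in si-Control and 2619 in si-*Fndc1*, a difference of 648.2. The next largest difference was 80.2 FPKM, for *Acta1*, which was not called. The means of *Myh3*, *Myh8*, *Tnnt3*, *Casq2* and *Ttn* were lower in si-*Fndc1*. The part of the summed difference in the levels of the fusion genes was not tested.

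Of the immunoglobulin adhesion molecules, 1 rose, 1 fell and 1 was not called. *Jam2* (ENSMUSG00000053062, chr16:84571011-84622816, plus strand) encodes a junctional adhesion molecule that binds *Jam3* protein on the neighbouring myoblast. Its level was 19.4, 19.7, 19.9, 21.4 and 19.2 FPKM in si-Control 1 to 5, and 22.4, 24.6, 21.8, 20.9 and 23.3 FPKM in si-*Fndc1* 1 to 5. Only si-*Fndc1* 4 fell within the range of the controls, below si-Control 4. *Jam2* rose from 19.9 ± 0.880 to 22.6 ± 1.39 FPKM (SD, n = 5 per group; exact permutation p = 0.0159), a log2FC of 0.19 (SE 0.05, edgeR adjusted p = 0.00795). The offset left 0.12 (adjusted p = 0.0478), and the call was kept without each library in turn (0.16 to 0.22). Endothelial cells also make *Jam2*. The summed level of 6 endothelial markers was 0.227 to 0.369 FPKM in si-Control and 0.235 to 0.695 FPKM in si-*Fndc1*, and of these *Cdh5* and *Emcn* had 0 counts in every library. *Tek*, another of the 6, was 0.0976 FPKM on average in si-Control and 0.164 in si-*Fndc1*, with 4 of 5 si-*Fndc1* libraries above all controls (exact permutation p = 0.0317). The part of endothelial transcripts in the *Jam2* level was not tested.

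*Jam3* (ENSMUSG00000031990, chr9:27008680-27066714, minus strand), which encodes the binding partner of *Jam2* protein, was at a lower level. It measured 4.60, 4.41, 4.47, 4.71 and 4.82 FPKM in si-Control 1 to 5, against 5.62, 5.41, 4.17, 4.58 and 5.03 FPKM in si-*Fndc1* 1 to 5. The si-*Fndc1* values reached both above and below the controls. The difference was within the spread between libraries (4.60 ± 0.167 against 4.96 ± 0.592 FPKM, SD, n = 5 per group; exact permutation p = 0.230), with a log2FC of 0.12 (95% interval -0.04 to 0.27, edgeR adjusted p = 0.276). The ratio of *Jam2* to *Jam3* FPKM within a library was 4.33 on average in si-Control and 4.59 in si-*Fndc1* (exact permutation p = 0.286, 0.571 adjusted over the 4 pairs). An antisense gene, *Gm48796*, overlaps *Jam3* and held 37 to 91 counts in a library, against at least 1009 for *Jam3*. Strand use in the counting is not given in the sources used here.

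*Ncam1* (ENSMUSG00000039542, chr9:49413436-49710225, minus strand) encodes the neural cell adhesion molecule, which myoblasts and young myotubes carry on their surface. Its level was 64.5, 55.3, 60.6, 67.7 and 60.8 FPKM in si-Control 1 to 5, and 57.0, 60.2, 50.9, 48.9 and 45.2 FPKM in si-*Fndc1* 1 to 5. Libraries 3, 4 and 5 of si-*Fndc1* were below all controls, while libraries 1 and 2 were above si-Control 2. The mean fell from 61.8 ± 4.65 to 52.4 ± 6.09 FPKM (SD, n = 5 per group), a ratio of 0.849 (exact permutation p = 0.0397). The log2FC was -0.23 (SE 0.08, edgeR adjusted p = 0.0478) and -0.15 with the offset (adjusted p = 0.126). This call too was near the threshold, and it was lost without si-Control 1, 3, 4 or 5 (adjusted p = 0.0956, 0.0729, 0.107 and 0.0746) and without si-*Fndc1* 3, 4 or 5 (0.0919, 0.105 and 0.0930), at log2FCs of -0.24 to -0.18. The permutation p was 0.0635 without si-Control 3 or 5 and 0.0794 without si-Control 1 or 4 or si-*Fndc1* 3, 4 or 5 (differences of -9.63 to -7.54 FPKM). Neurons and glia also carry *Ncam1*. Their 7 markers summed to 0.167 to 0.286 FPKM in si-Control and 0.153 to 0.281 FPKM in si-*Fndc1*, with *Snap25* and *Rbfox3* at 0 counts in every library.

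Of the cadherins, calcium-dependent adhesion proteins that bind their like on the opposite cell, *Cdh15* fell and *Cdh2* was not called. *Cdh15* (ENSMUSG00000031962, chr8:123574705-123594136, plus strand) encodes M-cadherin, the cadherin of skeletal muscle. In si-Control 1 to 5 there were 113.4, 109.6, 113.0, 111.7 and 108.3 FPKM, and in si-*Fndc1* 1 to 5 there were 98.2, 101.2, 97.7, 100.2 and 92.3 FPKM. The lowest control, si-Control 5, was above the highest si-*Fndc1* library, si-*Fndc1* 2. The mean fell from 111.2 ± 2.18 to 97.9 ± 3.46 FPKM (SD, n = 5 per group), a ratio of 0.880 (exact permutation p = 0.00794). Its log2FC was -0.18 (SE 0.03, edgeR adjusted p = 0.00208), on 26151 to 31177 counts per si-Control library and 18739 to 26745 per si-*Fndc1* library, and it kept its call without each library in turn (-0.19 to -0.15). With the offset the sign turned and the call was lost (0.04, adjusted p = 0.388), whereas in limma on quantile-normalized values it was -0.30 (adjusted p = 0.000523). *Cdh15* has the highest GC content of the 9 tested genes, 59.9%. Its direction thus holds without the offset and not with it.

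*Cdh2* (ENSMUSG00000024304, chr18:16721934-16942303, minus strand) encodes N-cadherin, found on myoblasts, neurons and many other cells. Its level was 26.1, 23.4, 24.4, 31.2 and 29.9 FPKM in si-Control 1 to 5, and 22.3, 23.8, 28.4, 28.5 and 21.2 FPKM in si-*Fndc1* 1 to 5. Both groups were spread widely and overlapped. The means, 27.0 ± 3.43 and 24.8 ± 3.42 FPKM (SD, n = 5 per group), differed by less than the spread between libraries (exact permutation p = 0.349). The log2FC was -0.11 (95% interval -0.32 to 0.10, edgeR adjusted p = 0.460). Hepatocytes carry N-cadherin too. The summed hepatocyte level of si-*Fndc1* 1 to 5 was 114.4, 209.0, 201.6, 203.2 and 60.8 FPKM. The part of hepatocyte transcripts in the *Cdh2* level was not tested. Within a library the ratio of *Cdh15* to *Cdh2* FPKM was 4.18 on average in si-Control and 3.99 in si-*Fndc1*, and the groups were not told apart (log2 difference -0.06, exact permutation p = 0.532, 0.709 adjusted over the 4 pairs).

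The Rac activators *Dock1* and *Dock5* fell by nearly the same amount. *Dock1* (ENSMUSG00000058325, chr7:134272383-134625656, plus strand) encodes an exchange factor that loads Rac with GTP. It had 4.06, 3.77, 4.13, 3.69 and 3.94 FPKM in si-Control 1 to 5 and 3.35, 3.48, 3.19, 3.38 and 3.46 FPKM in si-*Fndc1* 1 to 5, so that the highest si-*Fndc1* library, si-*Fndc1* 2, was below the lowest control, si-Control 4. The mean fell from 3.92 ± 0.187 to 3.37 ± 0.113 FPKM (SD, n = 5 per group), a ratio of 0.861 (exact permutation p = 0.00794). The log2FC was -0.21 (SE 0.04, edgeR adjusted p = 0.00442) and -0.14 with the offset (adjusted p = 0.0459). It stayed called without each library in turn (-0.23 to -0.19), on 2016 counts or more in every library.

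*Dock5* (ENSMUSG00000044447, chr14:67989584-68170881, minus strand) encodes a close relative of *Dock1* protein and was the more abundant of the pair. The libraries si-Control 1 to 5 gave 8.77, 7.84, 8.35, 8.04 and 8.44 FPKM, and si-*Fndc1* 1 to 5 gave 6.99, 7.29, 7.08, 6.83 and 7.47 FPKM. The groups were again apart, with si-*Fndc1* 5 closest to the lowest control, si-Control 2. The mean fell from 8.29 ± 0.360 to 7.13 ± 0.253 FPKM (SD, n = 5 per group), a ratio of 0.860 (exact permutation p = 0.00794). Its log2FC was -0.21 (SE 0.04, edgeR adjusted p = 0.00158), and -0.23 to -0.19 without each library in turn. With the offset it was -0.09 and no longer called (adjusted p = 0.140). The ratio of *Dock5* to *Dock1* FPKM within a library was 2.12 on average in both groups (exact permutation p = 0.976, also 0.976 adjusted over the 4 pairs).

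*Elmo1* (ENSMUSG00000041112, chr13:20274766-20792523, plus strand), a partner that Dock proteins bind in order to act on Rac, was at a low level. It had 0.246 to 0.295 FPKM in si-Control (239 to 315 counts in a library) and 0.177 to 0.319 FPKM in si-*Fndc1* (159 to 327 counts). Of the si-*Fndc1* libraries, si-*Fndc1* 2 was above all controls and the other 4 were below all controls. The means were 0.268 ± 0.0199 and 0.236 ± 0.0538 FPKM (SD, n = 5 per group), with p = 0.246 in the exact permutation test, and p = 0.0159 without si-*Fndc1* 2 (difference -0.05 FPKM). When the filter on low levels was lifted, edgeR gave a log2FC of -0.18 (standard error 0.15, adjusted p = 0.479).

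**Figure D3:**
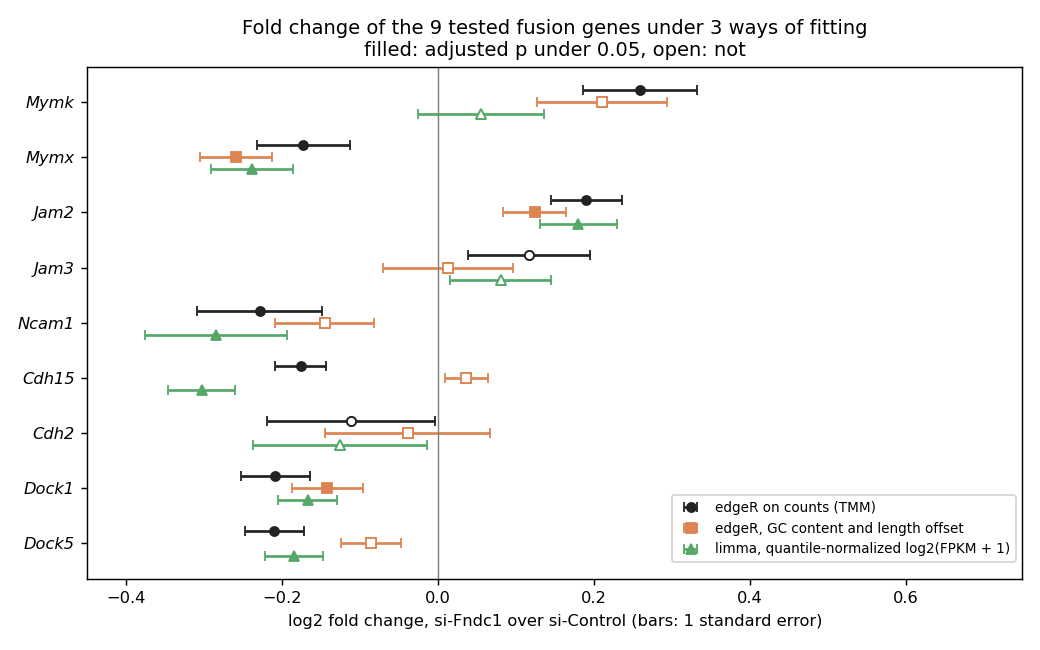
Log2 fold change of the 9 tested fusion genes, si-*Fndc1* over si-Control (horizontal axis, bars of 1 standard error), from edgeR on the counts (black circles), edgeR with the offset for GC content and length (orange squares) and limma on quantile-normalized log2(FPKM + 1) (green triangles), filled at an adjusted p-value under 0.05. *Cdh15* moves from -0.18 to 0.04 with the offset, and *Mymk* from 0.26 to 0.06 with quantile normalization, while *Mymx*, *Jam2* and *Dock1* are filled in all 3.

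Beyond the 10 genes, a list of 57 other genes of the fusion machinery was read in the same fit. Of these, 56 were in the table under the listed symbol, 49 passed the filter, and 24 were called, 11 higher and 13 lower in si-*Fndc1*, against 34.4% of all tested genes. With the filter raised to a mean of at least 5 FPKM, 22 of 45 were called, where 3431 of all 6924 tested genes were. The list thus stood near the share of all genes at such levels. With the offset 11 were higher and 5 lower, where 1360 of all 11185 fitted genes were higher and 1157 lower. With quantile-normalized values in limma 6 were higher and 14 lower, where 2134 of all 13548 genes were higher and 2542 lower. The balance of directions thus depended on the scaling, in the list and over all genes. The median log2FC of the 49 was -0.02. *Arhgap26*, *Adgrb1* and *Adgrb3* had 0 counts in every library, and *Kirrel1* was not found by symbol.

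In Rac signalling and the actin machinery, 5 of 18 tested genes rose and 6 fell, where 17.3% and 17.2% of all tested genes did. With the offset 3 were higher and 3 lower, where 22.5% of all fitted genes were called. *Bcar1*, the adaptor p130Cas that recruits Crk and Dock proteins, fell from 24.1 ± 1.21 to 17.2 ± 0.644 FPKM (SD, n = 5 per group; log2FC -0.48, edgeR adjusted p = 2.92e-05), and its log2FC was -0.21 with the offset (adjusted p = 0.00120). *Arf6*, a small GTPase of membrane traffic and Rac activation, fell from 53.9 ± 2.90 to 40.8 ± 2.70 FPKM (SD, n = 5 per group; -0.39, edgeR adjusted p = 0.000331), and by more with the offset (-0.65, adjusted p = 1.88e-05). *Trio*, an exchange factor for Rac, fell from 11.95 ± 1.18 to 8.83 ± 0.372 FPKM (SD, n = 5 per group; -0.43, edgeR adjusted p = 0.000506) but not with the offset (-0.08, adjusted p = 0.420). The groups did not overlap for any of these 3 genes, where 13.0% of all tested genes did this in the lower direction. The 3 were named for their small p-values, so this is no separate result. *Rac1* itself, named after its values were seen, had 57.3, 26.5, 56.5, 56.7 and 56.3 FPKM in si-Control 1 to 5 and 59.2 to 62.6 FPKM in si-*Fndc1*. Its log2FC was 0.27 (edgeR adjusted p = 0.258), and 0.11 (adjusted p = 0.0127) without si-Control 2, the library with the low value.

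Among surface receptors and recognition molecules, 4 of 14 tested genes rose and 2 fell, against 34.4% of all tested genes called in either direction. With the offset 4 were higher and 1 lower, where 22.5% of all fitted genes were called. *Cd164*, a sialomucin of myoblasts, rose from 103.3 ± 3.63 to 131.0 ± 5.13 FPKM (SD, n = 5 per group; log2FC 0.35, edgeR adjusted p = 6.69e-05), and its log2FC was 0.14 with the offset (adjusted p = 0.0368). *Cd9*, a tetraspanin, rose from 96.5 ± 3.96 to 121.4 ± 5.58 FPKM (SD, n = 5 per group; 0.34, edgeR adjusted p = 0.000119), and its offset value was 0.12 (adjusted p = 0.0150). *Itga3*, an integrin alpha subunit, fell from 19.7 ± 0.755 to 16.4 ± 0.299 FPKM (SD, n = 5 per group; -0.26, edgeR adjusted p = 0.000165), a call lost with the offset (-0.02, adjusted p = 0.575). The rise of *Itgb1*, the integrin beta subunit that many alpha subunits share, was likewise lost with the offset (0.21 against 0.08, edgeR adjusted p = 0.0139 against 0.352). *Nphs1* (nephrin), named after its values were seen, was at 0.400, 0.559, 0.350, 0.821 and 0.328 FPKM in si-Control 1 to 5 and at 13.0, 0.465, 8.29, 1.67 and 0.709 FPKM in si-*Fndc1* 1 to 5. Its log2FC of 3.30 (edgeR adjusted p = 0.0135) came with overlapping groups and high values in si-*Fndc1* 1 and 3. It was 1.39 (adjusted p = 0.0960) in limma on log2(FPKM + 1).

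Among genes of the cadherin junction, 1 of 6 tested rose and 1 fell, a share near the 34.4% of all tested genes. The counts were the same with the offset, where 22.5% of all fitted genes were called. *Ctnnd1* (p120-catenin, which binds the cadherin tail) fell from 50.2 ± 1.45 to 41.9 ± 0.999 FPKM (SD, n = 5 per group; log2FC -0.25, edgeR adjusted p = 0.000105), and its log2FC was -0.24 with the offset. *Cdh13* (T-cadherin, which lacks that tail) rose from 34.6 ± 0.834 to 37.7 ± 0.942 FPKM (SD, n = 5 per group; 0.13, edgeR adjusted p = 0.00741), and the offset gave 0.29 (adjusted p = 5.88e-05). *Ctnna1* (alpha-catenin, the link to actin) was 76.1 ± 3.56 and 70.3 ± 2.77 FPKM (SD, n = 5 per group; -0.11, edgeR adjusted p = 0.0634), and its adjusted p was 0.0409 without si-Control 2 and 0.0360 without si-*Fndc1* 2.

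In membrane remodelling, 1 of 11 tested genes rose and 4 fell, where 17.3% and 17.2% of all tested genes did. With the offset the balance turned over, to 3 higher (*Plekho1*, *Dnm2* and *Ehd1*) and 0 lower, where 22.5% of all fitted genes were called. *Plekho1* rose from 18.7 ± 0.944 to 22.3 ± 0.682 FPKM (SD, n = 5 per group; log2FC 0.26, edgeR adjusted p = 0.000963). The ferlins *Myof* (myoferlin, which acts in myoblast fusion) and *Dysf* (dysferlin, of membrane repair) fell from 30.4 ± 1.12 to 26.6 ± 1.13 FPKM and from 11.4 ± 0.937 to 9.36 ± 0.745 FPKM (SD, n = 5 per group), with log2FCs of -0.18 and -0.28 (edgeR adjusted p = 0.00367 and 0.00976). With the offset neither ferlin was called (-0.06 and -0.05, adjusted p = 0.0735 and 0.470). *Cav3*, the muscle caveolin, was 35.0 ± 0.880 and 37.3 ± 1.99 FPKM (SD, n = 5 per group; 0.10, edgeR adjusted p = 0.0754).

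**Figure D4:**
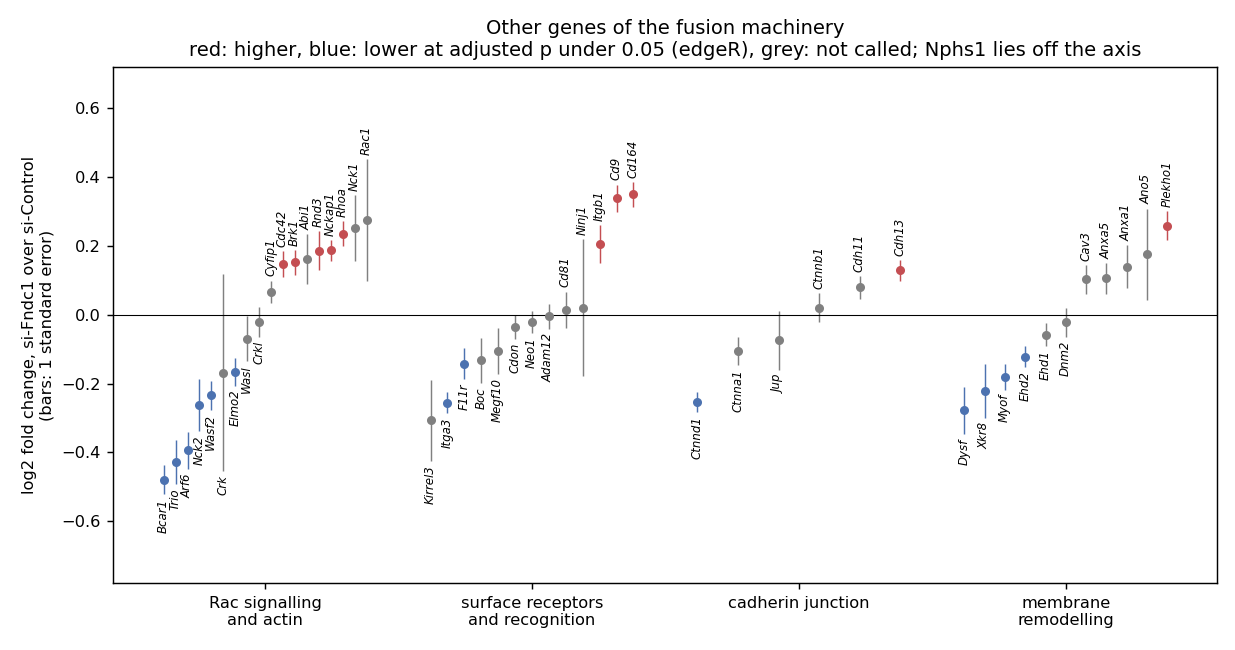
Log2 fold change, si-*Fndc1* over si-Control, of the tested genes of the wider fusion list in 4 groups (bars of 1 standard error), red for higher and blue for lower at an adjusted p-value under 0.05 in edgeR and grey for not called, with *Nphs1* (3.30) outside the axis. *Bcar1*, at -0.48, is the lowest, and *Rac1* shows a wide error bar that goes with 1 low si-Control library.

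By similarity across the 10 libraries, the genes whose log2 CPM were closest to those of *Mymk* were *Larp4*, *Prep*, *Ube2d1*, *Mamdc2* and *Inpp4b*, with Pearson r from 0.946 to 0.957. Closest to *Mymx* were *Chac1*, *Zfp503*, *Trib3*, *Lrrc8a* and the processed pseudogene *Gm7962*, with r from 0.929 to 0.969. These r describe 10 libraries that share 2 groups, and no test was run on them.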

How the data were processed

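C2C12 cells of 2 groups (si-*Fndc1* and si-Control, 5 libraries each, assigned by their labels) were profiled by mRNA sequencing. The authors deposited raw read counts and FPKM per gene in 1 table of 55359 genes (26407 without a count), and 0 columns were left without a sample. Zero counts are listed with an FPKM above 0, and FPKM divides counts by transcript length and library size. The sources differ: the methods name TopHat, mm10 and htseq-count and fewer libraries, the series text names STAR and mm9 and an earlier time point, and the processing notes name GRCm39, cutadapt 1.9 and FastQC.

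From the deposited counts, the 13548 genes whose mean FPKM reached 0.5 were fitted together by edgeR 4.0.16 (TMM, quasi-likelihood, no block) in R 4.3.3, with Benjamini-Hochberg adjustment over all of them. FPKM levels were compared by two-sided exact permutation tests (scipy 1.17.1). Intervals are 1.96 standard errors on either side. GC content was taken from the reference transcripts matched by gene identifier. The offset took splines of 5 degrees of freedom on GC content and length, fitted by Huber regression within each library to log counts (0.5 added). Alternatives were DESeq2 1.42.0, edgeR with RLE size factors, limma 3.58.1 on log2(FPKM + 1), log2(FPKM + 0.1) and quantile-normalized log2(FPKM + 1), no filter, a mean FPKM of at least 5, the replicate number as a block, the offset, and each library left out. The offset's genes without the offset and the ratios of gene pairs were added after the data were seen. The scripts were tested on simulated data.

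The members and all lists were chosen with earlier results of these data known. All 10 members are described. From each group of the wider list the 3 genes with the smallest p are named, plus *Cav3* and *Itgb1*, and the 5 genes most like each fusogen. *Nphs1*, *Rac1*, *Dnm2*, *Ehd1*, the myotube genes named singly and genes given as markers were named outside this rule. Depth per library is given in the text, and the spread between libraries rather than counting error sets the precision.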

Additional observations from a re-analysis of the deposited data

Results flagged for a closer look

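In 4 of 68 sets of 5 libraries examined, 1 library stood apart from the rest of its group in FPKM by Dixon's criterion (a gap of more than 0.71 of the range), where chance gives about 1 in 20. None of the 4 was a value of the 10 fusion genes themselves. *Rac1* was 26.46 FPKM in si-Control 2, with the other controls at 56.3 to 57.3. *Itgb1* was 314.6 FPKM in si-Control 3 (others 278.4 to 283.7) and 375.5 FPKM in si-*Fndc1* 1 (others 311.3 to 321.9). *Myod1* was 40.39 FPKM in si-Control 4 (others 41.97 to 42.55).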

How the results depend on the processing

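The offset for GC content and length lowered the calls over all genes from 4663 (4244 among the genes it could fit) to 2517, and those of the fusion genes from 7 to 3. The numbers of the replicates were not found to pair libraries: same-numbered libraries deviated with correlations of -0.06 to 0.06, and si-Control 1 and 2, for example, did not correlate best with their own numbers. With the replicate block alone 3572 genes and 5 fusion genes were called, *Mymx* (adjusted p = 0.102) and *Ncam1* (0.0905) being lost, and 20 genes of the wider list. *Myod1* also lost its call with the block (0.16, adjusted p = 0.0668). With the replicate block and the offset together 1651 genes, 1 fusion gene (*Mymx*) and 9 of the wider list (24 without both) were called. *Cdh15* reversed to 0.0365 with the offset (adjusted p = 0.388) and to 0.0364 with the offset and the block (0.436), and the cause was not tested.

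With each library left out in turn, 4000 to 4627 genes, 5 to 6 fusion genes and 20 to 27 genes of the wider list were called. The group difference in the log2 ratio of *Dock5* to *Dock1*, which was -0.00116 with all libraries, ran from -0.0183 (without si-*Fndc1* 3) to 0.0157 (without si-*Fndc1* 4). Without the filter *Mymx* (adjusted p = 0.0868) and *Ncam1* (0.0858) lost their calls. *Jam2* and *Dock1* lost theirs only with the offset and the block together (0.119 and 0.138), and *Dock5* with the offset, with and without the block. DESeq2 called the same number of fusion genes, 7, and 5019 genes in all. *Mymk* kept its call in 18 of 21 alternatives, *Jam2* in 20 of 21, *Dock1* in 19 of 20, *Dock5* in 19 of 21, *Mymx* in 11 of 21 and *Ncam1* in 10 of 21, each with its direction kept in all of them. Of the wider list, *Cd164* (0.0986) and *Cd9* (0.0782) lost their calls with the offset and the block together, and *Itgb1* (0.795) and *Cdh13* (0.106) in limma on quantile-normalized values.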
